A study of Homo sapiens with 8 samples.

Results

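Transcripts of ES2 cells lacking KDM1A were compared with those of ES2 control cells while both were exposed to LY500307. The members were chosen by label alone: the 2 libraries of KDM1A knockout cells and the 2 libraries of control cells that had received 5 µM LY500307 for 48 h, which are 4 of the 8 samples of the series. The other 4 samples are control and knockout cells that received vehicle, and they were used only to ask whether the knockout effect differed with the agonist. ES2 is a human ovarian cancer cell line, grown in serum-containing medium, and LY500307 is an agonist selective for oestrogen receptor beta. The study asked how loss or inhibition of KDM1A bears on the tumour-suppressing action of that receptor. The sources used here do not give the edited site in KDM1A, the vehicle, the kind of control cell, or whether the knockout population grew from 1 clone. Effects of KDM1A loss and other differences between these cell populations therefore cannot be told apart. No label states that duplicates were separate cultures, and the p-values reflect spread among these samples alone, which may be technical.

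KDM1A, also called LSD1, is an amine oxidase that removes methyl groups from lysine residues of histone H3. It works in the CoREST complex, where the scaffold proteins RCOR1, RCOR2 and RCOR3 join it to the histone deacetylases HDAC1 and HDAC2, and DNA-binding factors such as REST, SNAI1 and GFI1 bring the complex to their target genes. It is best known for silencing enhancers and promoters, and it can also act as a coactivator of nuclear receptors. Oestrogen receptor beta, encoded by ESR2, is a ligand-dependent transcription factor.

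KDM1A itself (hg19 chromosome 1, 23345936 to 23410182) stood at 238 and 241 CPM (the usual unit of counts scaled to library size, here by TMM) in control replicates 1 and 2 and at 72.0 and 71.6 CPM in knockout replicates 1 and 2. The groups did not overlap, and the knockout mean was 29.9% of control, against 34.9% with vehicle. The log2 fold change was -1.74 (SE 0.0551; edgeR adjusted p = 3.36e-38, by the quasi-likelihood test and the adjustment of Benjamini and Hochberg). Reads were counted over the whole gene, so the remaining signal does not show whether the transcript is intact. CPM is not divided by transcript length, so levels below are compared between libraries and never between genes.

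The receptors that could carry an oestrogenic signal were scarce. ESR2, the receptor for which LY500307 is selective, had 11 counts over both control libraries and 12 over both knockout libraries, too few to be tested. ESR1, encoding oestrogen receptor alpha, had 22 and 15 counts, and a difference was not detectable at that depth (log2 fold change -0.51, SE 0.589, edgeR adjusted p = 0.457). GPER, the membrane oestrogen receptor, stood at 0.769 and 1.11 CPM in control libraries and 2.89 and 3.21 CPM in knockout cells. Both knockout libraries lay above both controls, with a log2 fold change of 1.70 (SE 0.279, edgeR adjusted p = 2.73e-07). Of 11 oestrogen-responsive genes tested, 3 rose and 6 fell. GREB1, a classical early target of oestrogen receptor alpha, rose with a log2 fold change of 2.65, and the lysosomal protease CTSD with 0.32. IGFBP4, a carrier of insulin-like growth factors, changed by -2.91, and the cyclin CCND1 by -0.49.

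Gene counts totalled 28319768 and 27693424 in the control libraries and 25906633 and 27538721 in the knockout libraries, and over all 8 samples 24348937 to 30131097. Reads outside annotated genes made up 10.7% and 10.9% of uniquely aligned reads in control and 12.6% and 12.7% in knockout libraries under LY500307, and the part of this gap in the results was not tested. The cells carried KRT7, a keratin of ovarian surface epithelium and its carcinomas, at 329 and 342 CPM in control libraries and 359.8 and 349 CPM in knockout libraries. The epithelial adhesion genes CDH1 and EPCAM were under 1 CPM in all 4. Of 12 haematopoietic markers, CD3E, HBB and TYROBP were at 0 and 9 stayed under 1 CPM, while the whole list summed to 115.6 and 117.7 CPM in control libraries and 76.5 and 63.7 CPM in knockout cells, most of it CD68. Of 10 endothelial markers, CLDN5 was at 0 and 6 stayed under 1 CPM, and the list summed to 309.6 and 328.9 CPM in control libraries and 304.7 and 325.0 CPM in knockout cells. Of 12 mesothelial and fibroblast markers, none was at 0 in every library and 6 stayed under 1 CPM, and the list summed to 1168 and 1229 CPM in control libraries and 181.6 and 201.4 CPM in knockout cells, most of it COL1A1. In bulk RNA, fewer cells of a type and less RNA per cell cannot be told apart.

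Control replicate 2 held more reads than control replicate 1 from genes that are high in knockout cells. To describe this, 10 genes were taken from the vehicle libraries, with at least 20 CPM in knockout and at least 20 times the control level. In 9 of the 10 (all but ROS1) control replicate 2 lay above control replicate 1, by a median of 1.13% of the knockout level, and their sums were 63.4 and 92.1 CPM. With vehicle the controls summed to 43.1 and 47.8 CPM. The knockout libraries were described likewise, by 20 genes high in vehicle-treated control cells. Of these, 11 were higher in knockout replicate 2 than in knockout replicate 1, with a median excess of 0.0684% of the control level. The cause was not tested. For MMP3, IL13RA2, LAMA1, CLEC5A, CCDC147 and SGCZ folds are therefore given below with and without that library.

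Most genes differed between the populations. Of 13361 genes tested, 8819 (66.0%) passed at an adjusted p of 0.05. Higher in knockout cells were 4351 (32.6%) and lower 4468 (33.4%), and the median log2 fold change over all genes was -0.0050. Rises of at least 2-fold numbered 732 (5.48%) and falls of at least 2-fold 1144 (8.56%). The typical change was small, with a median absolute log2 fold change of 0.346. These shares are the background for each gene group below: a group whose shares match them is like the transcriptome as a whole.

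Genes almost absent from one population led the ranking. The 14 largest rises ranged from a log2 fold change of 4.37 to 8.55 and the 14 largest falls from -7.98 to -10.95, and all 28 were also called in the same direction with vehicle. MMP3, the secreted protease stromelysin (chromosome 11, 102706532 to 102714340), stood at 47.2 and 66.6 CPM in control libraries and 2263 and 2139.5 CPM in knockout cells. The groups were far apart, with a log2 fold change of 5.27 (SE 0.0698, edgeR adjusted p = 7.20e-60), or 38.7-fold, and 46.6-fold without control replicate 2. IL13RA2, a decoy receptor for interleukin 13 (chromosome X, 114238538 to 114254540), went from 1.36 and 5.03 CPM to 331 and 317 CPM. It was 101-fold higher, and 238-fold higher without control replicate 2. LAMA1, a laminin chain of basement membranes (chromosome 18, 6941741 to 7117796), went from 0.874 and 2.21 CPM to 113 and 122 CPM, 76.3-fold higher and 135-fold without control replicate 2. Its log2 fold change was 6.25, and 7.17 with the median of its arm, 18p, removed.

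The myeloid lectin CLEC5A (chromosome 7, 141627157 to 141646807, minus strand) lies within the span of MGAM, an intestinal glucosidase on the plus strand (141607613 to 141806547). The sources used here do not give the strand setting of the counting, so reads of this pair cannot be told apart. CLEC5A stood at 0.175 and 0.678 CPM in control libraries and 58.3 and 59.5 CPM in knockout cells, 138-fold higher and 337-fold without control replicate 2. MGAM stood at 0.0349 and 1.53 CPM in control libraries and 105 CPM in both knockout libraries, 134-fold higher with both controls. Of its 44 control counts, 43 came from control replicate 2.

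BST2 encodes tetherin, which holds budding virus particles on the cell surface. It rose from 0.0349 and 0.143 CPM to 17.1 and 15.0 CPM (log2 fold change 7.43, SE 0.285, edgeR adjusted p = 1.54e-33), with 5 counts over both control libraries. CDH19, a cadherin of glial cells, had 1 count in control and 460 in knockout cells, a ratio of 471 (95% counting interval 84.1 to 18650). ZBTB7C, a zinc finger factor, had 2 and 345 counts, a ratio of 177 (48.5 to 1465). The control counts of CDH19 and ZBTB7C all came from control replicate 2, and control replicate 1 had 0. The rest of the rises were the butyrophilin-like BTNL8 (log2 fold change 5.66), the folate receptor FOLR3 (5.56), CCDC147 (5.42), the sarcoglycan SGCZ (5.31), the sialyltransferase ST6GALNAC5 (4.76) and the zinc finger gene ZNF737 (4.37). SGCZ was 39.8-fold higher, and 63.7-fold higher without control replicate 2, and CCDC147 43.3-fold and 51.6-fold.

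Among the falls, 4 genes had no count in either knockout library. Against a floor of 3 counts over the group, FAM133A was at least 163-fold lower, the teneurin ODZ4 at least 125-fold, the ectodysplasin receptor EDA2R at least 121-fold and the calcium channel subunit CACNG6 at least 119-fold. THY1, a glycoprotein of fibroblasts and stem-like cells (chromosome 11, 119286186 to 119295695), stood at 37.7 and 37.4 CPM in control libraries and 0 and 0.0349 CPM in knockout cells. That was 2129 counts against 1, a ratio of 2079 (373 to 82137). NCAM2, a neural cell adhesion molecule, went from 38.9 and 38.3 CPM to 0.0375 and 0.0349 CPM, a ratio of 1067 (295 to 8817). VCAM1, the vascular adhesion receptor that binds integrins, went from 38.3 and 35.6 CPM to 0.0375 and 0.0349 CPM, a ratio of 1023 (283 to 8450). Expression of these adhesion molecules was at or near the floor in both knockout libraries.

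GRB10, an adaptor that restrains insulin and insulin-like growth factor receptors, fell from 75.9 and 75.1 CPM to 0.187 and 0.140 CPM (log2 fold change -8.82, SE 0.169, edgeR adjusted p = 1.51e-50). Other genes that fell to a trace were the sorting receptor SORCS3 (-8.93), the protease TMPRSS15 (-8.62) and the teneurin ODZ2 (-7.98). The matrix-associated IGFBP7 had 798 counts against 2, a ratio of 390 (107 to 3222). The proteoglycan SDC2 had 492 against 1, a ratio of 480 (85.8 to 19011), and the nicotinamide methyltransferase NNMT 351 against 1, a ratio of 343 (61.1 to 13573).

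**Figure D1:**
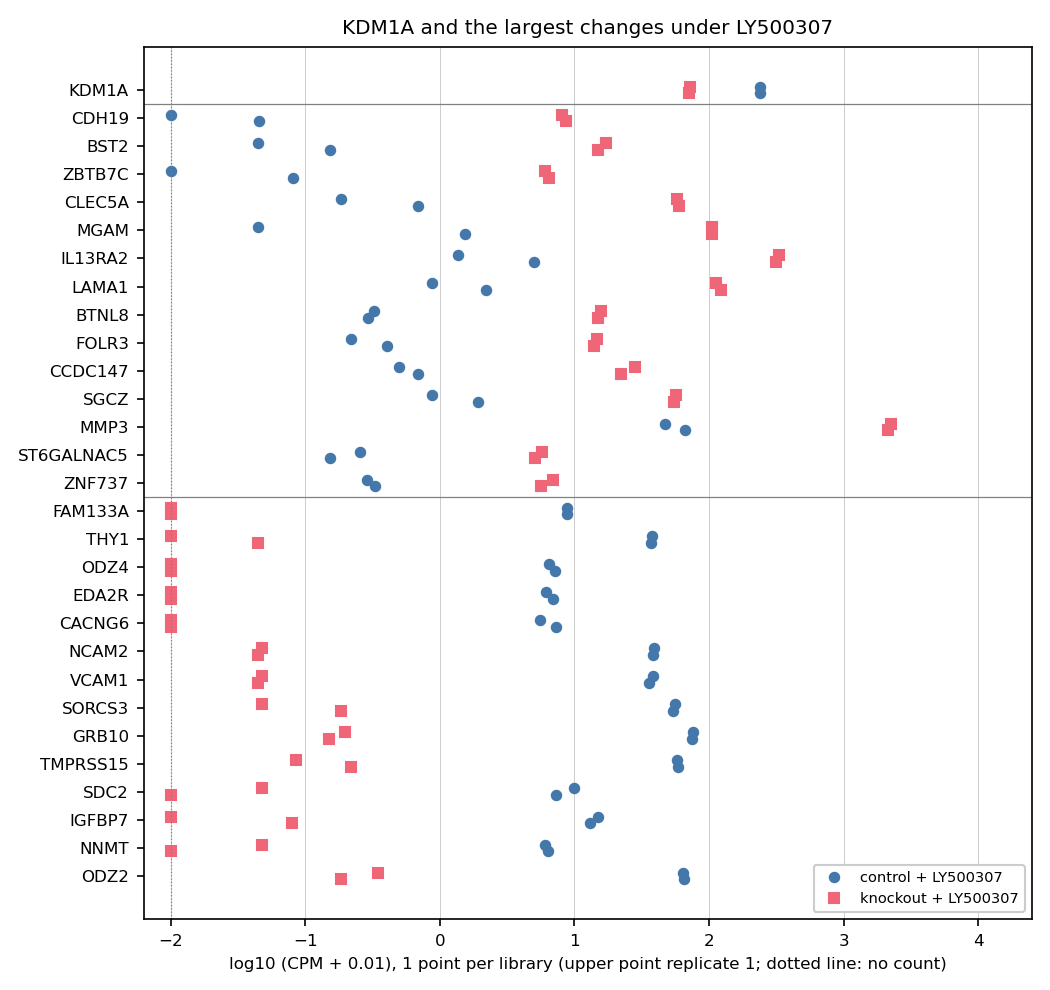
Expression of KDM1A, the 14 largest rises and the 14 largest falls in the 4 libraries treated with LY500307; the horizontal axis is CPM plus 0.01 on a log10 scale and each point is 1 library. Points of the 2 groups do not overlap for any gene shown. The 2 control libraries lie apart in MGAM, CLEC5A and IL13RA2, and also, at very few counts, in BST2, CDH19 and ZBTB7C.

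Genes of KDM1A's own complex went both ways. Of 16 genes of the CoREST complex and its recruiting factors, 6 rose and 6 fell, with a median log2 fold change of 0.04. At 37.5% each way, these shares were near those of all genes, 32.6% higher and 33.4% lower. The scaffold gene RCOR2 stood at 1.40 and 1.25 CPM in control libraries and 0.112 and 0.105 CPM in knockout cells (log2 fold change -3.56, SE 0.536, edgeR adjusted p = 3.52e-08), while RCOR3 rose by 0.36. KDM1B, the paralogous demethylase, rose from 43.3 and 44.2 CPM to 56.4 and 51.9 CPM, and SNAI1, a repressor that recruits KDM1A, rose by 1.13. GFI1 fell, and REST and HDAC1 did not pass. Neuronal genes that REST and CoREST are known to repress were lower in 8 of 13 tested and higher in 1, with a median of -0.60. The neurofilament gene NEFL went from 44.98 and 44.02 CPM to 6.187 and 7.404 CPM (log2 fold change -2.71, SE 0.101), the intermediate filament INA changed by -1.20, the tubulin-binding STMN3 by -1.23, and the synaptic SNAP25 by -1.17. The single rise, in CELSR3, was lost without control replicate 2, without knockout replicate 2 or with arm medians removed.

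Genes of matrix-digesting metalloproteinases and of their TIMP inhibitors went both ways. Of 14 metalloproteinases and TIMP inhibitors tested, 7 rose (50.0%) and 4 fell (28.6%), 5 and 3 of them at least 2-fold. Among all genes 32.6% rose and 33.4% fell. MMP2, a gelatinase (chromosome 16, 55423612 to 55540603), stood at 74.1 and 85.9 CPM in control libraries and 769 and 761 CPM in knockout cells, 956% of control (log2 fold change 3.26, SE 0.0549, edgeR adjusted p = 1.70e-53). The stromelysins MMP3 and MMP10 rose, the latter by 2.48, and so did MMP12. MMP1, the interstitial collagenase, went from 18117 and 17636 CPM to 22788 and 21969.8 CPM, a log2 fold change of 0.32. The membrane-bound MMP14, an activator of pro-MMP2, rose from 286 and 299.8 CPM to 539 and 551 CPM, at 0.90 on the log2 scale and 0.58 with the median of 14q removed. The falls were those of the membrane-type MMP16 (-0.55) and MMP24 (-2.95) and of the inhibitors TIMP2 and TIMP3.

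The inhibitor TIMP3, which is held in the matrix, stood at 523 and 518 CPM in control libraries and 71.9 and 65.7 CPM in knockout cells, 13.2% of control (log2 fold change -2.92, SE 0.0540, edgeR adjusted p = 2.24e-51). TIMP2 went from 209 and 219.7 CPM to 95.5 and 97.3 CPM, and TIMP1 did not pass. In the plasminogen system, 4 of 9 genes rose and 5 fell, with a median of -0.52. Both activators fell: PLAT, the tissue-type activator, from 1357 and 1382 CPM to 265 and 268 CPM, and PLAU, urokinase, from 674 and 681 CPM to 464 and 472 CPM. F3, the tissue factor that starts coagulation, rose from 19.5 and 19.7 CPM to 64.4 and 69.3 CPM, and its pathway inhibitor relative TFPI2 rose by 0.92. The AP-1 motif TGANTCA, searched on both strands, was found in the promoters of 2 of 10 metalloproteinase and TIMP genes in the RefSeq table, MMP10 and MMP7, against 9.37% of all 27305 promoters of that length. MMP1 and MMP3 were not in that table, so their promoters were not searched. MMP7 was not among the genes tested for expression.

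Structural matrix genes were lower in most cases. Of 33 collagens, laminins and matrix glycoproteins tested, 5 rose and 26 fell, with a median log2 fold change of -0.90, and 15 fell at least 2-fold. Collagens fell in 12 of 14 and glycoproteins in 10 of 12. COL1A1, a chain of the main fibrillar collagen (chromosome 17, 48261462 to 48278993), stood at 1069 and 1132 CPM in control libraries and 127 and 149 CPM in knockout cells (log2 fold change -3.00, SE 0.0533, edgeR adjusted p = 2.78e-52). COL5A1, which starts fibril assembly, went from 50.5 and 53.0 CPM to 1.31 and 0.943 CPM, 2.18% of control. FN1, fibronectin, went from 3352 and 3507 CPM to 674 and 708 CPM, and THBS1, thrombospondin, from 249 and 259 CPM to 25.1 and 28.8 CPM. In all of these the groups were well separated.

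A smaller set of matrix genes rose, and the 5 rises numbered 3 with arm medians removed. LAMB3, a chain of the epithelial laminin-332, went from 313 and 344 CPM to 1453 and 1476 CPM (log2 fold change 2.16, SE 0.0471, edgeR adjusted p = 2.39e-47). COL7A1 (2.76), COL6A3 (0.18) and the adhesion-modulating TNC (1.07) rose too. LAMA1, described above, is a laminin outside this list. Of 14 integrin genes, which encode the receptors for these proteins, 2 rose and 9 fell, with a median of -0.37, and 1 rose when control replicate 2 was left out or arm medians were removed. ITGB3 went from 50.4 and 53.5 CPM to 6.79 and 6.46 CPM. ITGB5 changed by -1.01, ITGA3 by -0.72 and the common beta chain ITGB1 by -0.52, while the collagen receptor ITGA10 rose by 1.15.

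YAP and TAZ are coactivators that respond to cell tension and act through TEAD factors, whose core motif is GGAATG. Of 23 of their target genes tested, 20 fell and 1 rose, with a median of -0.50, and 6 fell at least 2-fold. ANKRD1, a nuclear ankyrin repeat protein (chromosome 10, 92671853 to 92680844), stood at 659 and 583 CPM in control libraries and 2.85 and 3.18 CPM in knockout cells, 0.485% of control (log2 fold change -7.68, SE 0.0828, edgeR adjusted p = 3.77e-65). CTGF, a matricellular growth factor (chromosome 6, 132269316 to 132272512), went from 1348 and 1347 CPM to 452 and 430.4 CPM, or -1.61 on the log2 scale. IGFBP3 changed by -4.91, CRIM1 by -1.85 and FSTL1 by -1.59. Not every target followed: CYR61, another canonical target, stood at 1390.1 and 1379 CPM in control libraries and 1432 and 1407 CPM in knockout cells (edgeR adjusted p = 0.464), GADD45B did not pass, and F3 rose.

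The 2 promoters shown are those of the lower targets with the smallest p among the targets whose promoter holds the TEAD core. They run from 250 bases before to 50 after the start, from RefSeq on GRCh38.p14, on the minus strand, with each GGAATG on the printed strand in capitals. ANKRD1 (chr10:90921038-90921337) has 2 and CTGF (chr6:131951323-131951622) has 3.
ANKRD1: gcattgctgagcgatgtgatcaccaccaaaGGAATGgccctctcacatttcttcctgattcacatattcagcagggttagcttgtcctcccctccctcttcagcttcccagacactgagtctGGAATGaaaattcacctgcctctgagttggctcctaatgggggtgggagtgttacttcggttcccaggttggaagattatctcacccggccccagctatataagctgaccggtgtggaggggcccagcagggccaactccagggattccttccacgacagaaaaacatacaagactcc
CTGF: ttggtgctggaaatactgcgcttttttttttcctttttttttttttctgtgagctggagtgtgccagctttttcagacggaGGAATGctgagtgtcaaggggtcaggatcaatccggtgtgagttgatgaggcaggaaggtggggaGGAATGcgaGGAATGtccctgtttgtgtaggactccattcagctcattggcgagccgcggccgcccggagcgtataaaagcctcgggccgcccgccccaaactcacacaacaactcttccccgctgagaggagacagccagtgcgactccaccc
Of the 23 targets, 17 were matched in the RefSeq table and 9 of these (52.9%) held GGAATG on either strand, against 16.7% of all 27305 promoters. All 9 were tested and fell, and targets without the motif in this window fell as well.

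WNT signalling genes were mostly lower. Of 22 tested, 3 rose and 15 fell, with a median of -1.32, and 13 fell at least 2-fold. Of the ligands, 4 of 5 fell: WNT5B went from 22.8 and 21.9 CPM to 4.80 and 5.38 CPM, and WNT5A, with 31 counts in control and 0 in knockout cells, was at least 10.1-fold lower. Of the receptors, 6 of 8 fell, among them LRP5, which went from 11.99 and 12.13 CPM to 0.412 and 0.384 CPM, FZD7 (-2.27) and the stem cell receptor LGR5 (-2.79), while FZD8 rose by 1.29. Secreted antagonists fell as well, in 3 of 3: SFRP1 from 976 and 953 CPM to 253 and 277 CPM, DKK3 from 413 and 419 CPM to 88.8 and 100.2 CPM, and DKK1 from 610.1 and 559 CPM to 286 and 288 CPM. Of the downstream effectors and targets 2 of 6 fell, and AXIN2, LEF1, SP5 and TCF7L2 did not pass. The 3 rises became 1 without control replicate 2 or without knockout replicate 2.

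Growth factors and their receptors fell in 19 of 25 and rose in 2, with a median of -1.46. NRG1, a ligand of ERBB receptors, went from 102 CPM in both control libraries to 3.67 and 4.44 CPM (log2 fold change -4.64, SE 0.0948, edgeR adjusted p = 4.78e-49). HBEGF, a ligand of EGFR, went from 144 and 140.2 CPM to 36.9 and 36.6 CPM, and EGFR itself from 248 and 246 CPM to 118 and 127 CPM. The receptor genes KIT, PDGFRA, FGFR1 and MET changed by -6.81, -2.15, -1.77 and -0.69. The exceptions were IGF1R, which rose from 39.1 and 40.9 CPM to 71.2 and 67.6 CPM, and the EGFR ligand BTC, which had 15 and 49 counts. The rises numbered 1 without knockout replicate 1.

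In the TGF-beta and BMP pathway, 10 of 26 rose and 11 fell, with a median of -0.05, close to that of all genes, and the falls numbered 6 without control replicate 1. Of its antagonists and latent TGF-beta binding proteins, 4 of 5 fell: NOG, GREM1, FST and LTBP1, while LTBP2 rose. NOG and GREM1 had no counts in knockout cells. FST, which traps activin, went from 189 and 191 CPM to 53.8 and 53.0 CPM (log2 fold change -1.83, SE 0.0584). The activin subunit INHBA rose from 115 and 113 CPM to 261 and 239.6 CPM, the ligand BMP2 by 1.54 and the inhibitory SMAD7 by 1.70, whereas the receptor TGFBR2 changed by -0.50.

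NF-kB targets and cytokines were higher in 22 of 32 and lower in 4, with a median of 0.53, and 11 rose at least 2-fold. Ligands rose in 11 of 15. IL1A, an alarm cytokine, went from 1.12 and 1.46 CPM to 8.85 and 6.98 CPM, IL24 from 3.35 and 4.25 CPM to 47.3 and 47.9 CPM, and the granulocyte factor CSF3 from 4.23 and 3.42 CPM to 15.3 and 19.6 CPM. Neutrophil chemokines rose, CXCL2 by 1.56, CXCL3 by 1.06 and CXCL5 by 0.41, although IL8 stood at 435 and 377 CPM in control libraries and 400.3 and 387 CPM in knockout cells (edgeR adjusted p = 0.451). Feedback regulators rose in 5 of 7, among them BIRC3, which went from 12.5 and 13.1 CPM to 33.1 and 32.7 CPM, and NFKBIA, which holds NF-kB in the cytoplasm (0.76). Subunit genes rose in 4 of 5. The adhesion receptor ICAM1 rose by 0.86, opposite to VCAM1, and the receptor IL7R changed by -2.14, or -1.35 with the medians of chromosome arms removed.

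Interferon-stimulated genes split. Of 39 tested, 13 rose (33.3%) and 17 fell (43.6%), against 32.6% and 33.4% of all genes. The median was 0.05, and 4 rose and 9 fell at least 2-fold. The transcription factors of the pathway went up in 3 of 5, STAT2 and IRF9 among them. Of 30 effectors, 9 rose, led by BST2, and 16 fell. OAS3, a sensor of double-stranded RNA, went from 7.72 and 6.17 CPM to 0.412 and 0.664 CPM, IFIT1, which binds viral RNA, from 9.26 and 8.81 CPM to 2.36 and 2.83 CPM, and IFITM3, which blocks viral entry, from 41.1 and 42.2 CPM to 16.5 and 15.4 CPM. IFITM2 changed by -1.70, and reads of IFITM2 and IFITM3 are uncertain because the genes are near-identical.

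BST2 and IFITM3 moved in opposite directions and are shown because both promoters hold the interferon response element, a pair of GAAA runs with 2 free bases between them. BST2 (chr19:17405581-17405880, minus strand, GRCh38.p14) has 2 overlapping matches and IFITM3 (chr11:320811-321110, minus strand) has 2 separate ones, in capitals.
BST2: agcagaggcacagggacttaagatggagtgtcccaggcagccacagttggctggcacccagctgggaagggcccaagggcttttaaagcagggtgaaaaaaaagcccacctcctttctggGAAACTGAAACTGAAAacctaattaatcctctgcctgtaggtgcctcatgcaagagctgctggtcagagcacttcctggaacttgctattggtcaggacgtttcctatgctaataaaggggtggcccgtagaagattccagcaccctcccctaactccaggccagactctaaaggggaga
IFITM3: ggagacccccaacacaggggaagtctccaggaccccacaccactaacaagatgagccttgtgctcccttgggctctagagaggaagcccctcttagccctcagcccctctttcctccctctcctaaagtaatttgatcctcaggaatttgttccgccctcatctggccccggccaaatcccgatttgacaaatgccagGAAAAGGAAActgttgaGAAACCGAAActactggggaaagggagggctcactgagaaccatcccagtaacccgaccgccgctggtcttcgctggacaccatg
In 23 of 32 interferon-stimulated genes matched in the RefSeq table (71.9%) the motif was found on either strand, against 4.38% of all promoters. Of the 22 of these that were tested, 8 rose and 11 fell.

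Of 16 genes of MHC class I presentation, 3 rose and 9 fell, with a median of -0.27. The immunoproteasome subunits fell in 3 of 3, with PSMB9 at 4.47 and 4.35 CPM in control libraries and 1.09 and 0.454 CPM in knockout cells. Peptide loading genes fell in 5 of 7, among them the trimming protease ERAP1 (-0.82), PDIA3 (-0.65) and tapasin, TAPBP (-0.61).

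**Figure D2:**
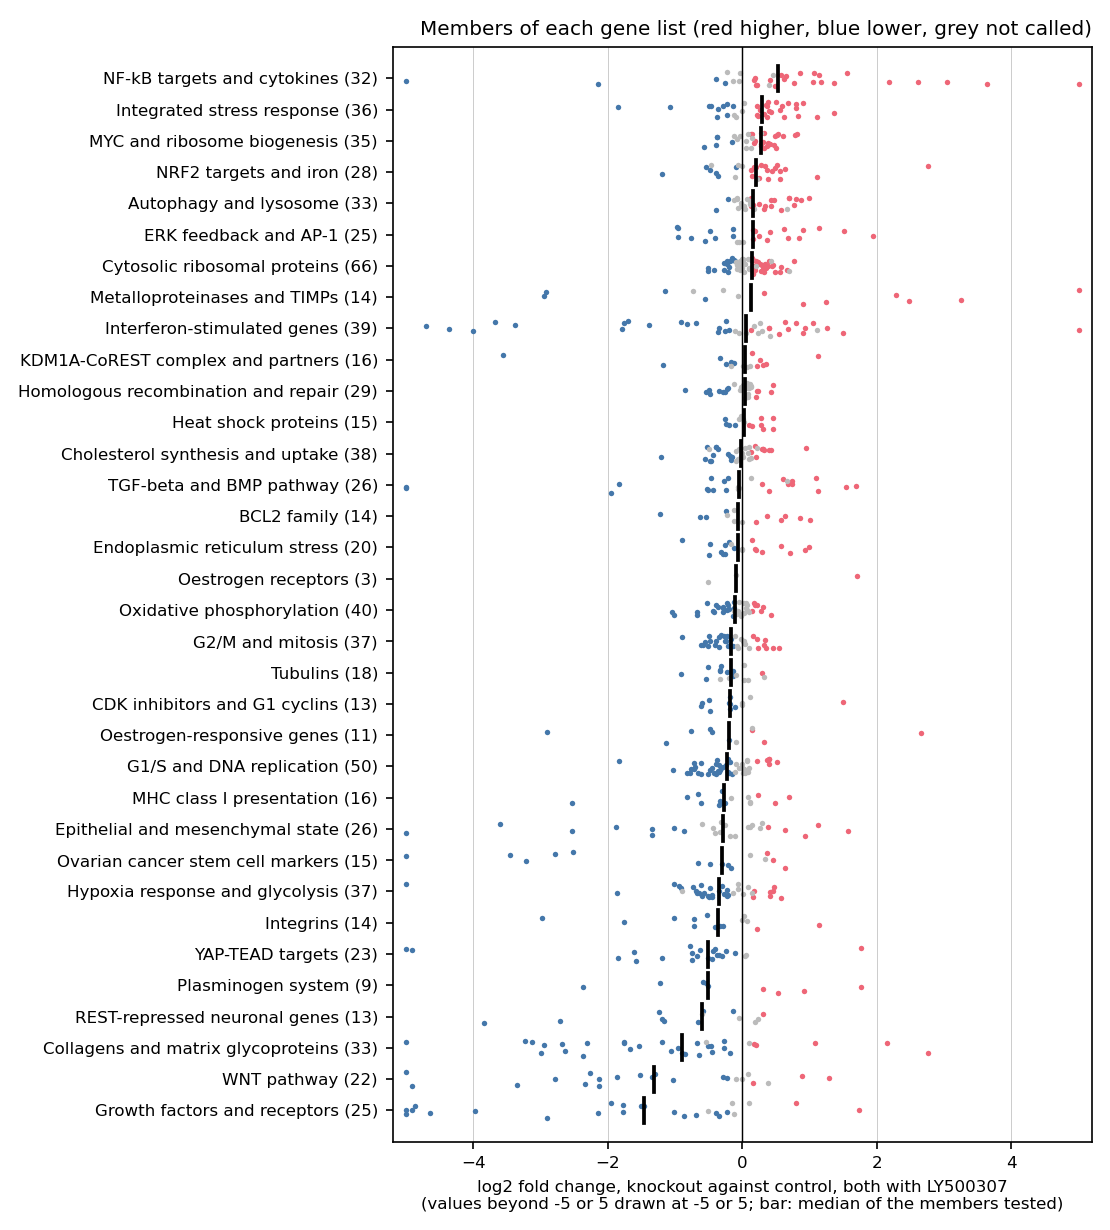
Log2 fold change of knockout against control under LY500307 for the tested members of each gene group, 1 point per gene, groups sorted by their median and values beyond 5 in either direction drawn at the edge; red is called higher, blue called lower and grey not called. Growth factor, WNT and matrix groups lie to the left with medians of -1.46, -1.32 and -0.90, and NF-kB targets to the right with 0.53.

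The G1/S and DNA replication genes were lower in 30 of 50 and higher in 6, with a median of -0.23. The changes were moderate, and 2 genes fell at least 2-fold. TYMS, thymidylate synthase (chromosome 18, 657653 to 673578), stood at 478 and 479.7 CPM in control libraries and 135 CPM in both knockout libraries (log2 fold change -1.83, SE 0.0496, edgeR adjusted p = 4.46e-42), and at -0.91 with arm medians removed, since it lies on 18p. The ubiquitin ligase subunit SKP2 changed by -1.03, or -0.23 with the median of its arm 5p removed. The helicase subunit MCM4 went from 375 and 384 CPM to 231 and 228 CPM, the thymidine kinase TK1 from 96.0 and 99.1 CPM to 53.3 and 56.5 CPM, and the cyclin CCNE2 from 64.0 and 62.9 CPM to 37.9 and 36.0 CPM.

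The TYMS promoter is shown as the most clearly lower G1/S gene with an E2F motif. It is the RefSeq sequence of chr18:657403-657702 on GRCh38.p14, plus strand, and the capitals mark 1 match to TTTNNCGC, read on the opposite strand.
TYMS: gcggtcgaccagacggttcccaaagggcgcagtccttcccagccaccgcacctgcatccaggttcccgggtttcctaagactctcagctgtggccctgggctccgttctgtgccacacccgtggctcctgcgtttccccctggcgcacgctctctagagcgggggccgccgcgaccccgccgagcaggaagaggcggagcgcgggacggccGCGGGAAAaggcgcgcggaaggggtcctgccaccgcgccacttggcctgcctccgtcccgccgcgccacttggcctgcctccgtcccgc
The motif was found on either strand in 25 of 42 matched G1/S genes (59.5%), against 8.23% of all promoters. Of those 25, 3 rose and 13 fell.

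Mitotic genes were lower in 20 of 37 and higher in 8, with a median of -0.17. The survivin gene BIRC5 went from 167 and 163 CPM to 89.2 and 88.2 CPM, TOP2A, which untangles sister chromatids, from 655 and 633 CPM to 419.7 and 423 CPM, and FOXM1, the factor that drives this programme, from 329 and 342 CPM to 240.3 and 233 CPM. The spindle pole gene ASPM rose from 250.02 and 245.7 CPM to 353 and 369 CPM. The kinase PLK1 changed by -0.58, a direction that turned to 0.076 (not called) with the median of 16p removed. Of 13 CDK inhibitors, G1 cyclins and pocket proteins, 1 rose and 9 fell, or 4 without knockout replicate 2. The rise was CDKN1A, which encodes p21 and went from 9.37 and 10.5 CPM to 26.2 and 29.8 CPM (log2 fold change 1.498, SE 0.104, edgeR adjusted p = 2.75e-20). RB1 changed by -0.60, or -0.24 with the median of 13q removed, and CDKN2B by -0.62.

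Of 29 genes of homologous recombination and repair, 5 rose and 9 fell, with a median of 0.03. RAD54B, a recombination motor, changed by -0.85 and RAD51C by -0.49, or by -0.54 and -0.30 with arm medians removed. BARD1 rose by 0.43, but stood at 0.12 (not called, edgeR adjusted p = 0.237) with the median of 2q removed. Tubulins and their partners fell in 10 of 18 and rose in 1, and 6 fell without control replicate 2. TUBB6 went from 598 and 605 CPM to 317 and 322 CPM, but stood at 0.0013 on the log2 scale (not called) with the median of 18p removed. TUBA1B changed by -0.54 and TUBB by -0.23, and reads of tubulin copies are uncertain.

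Genes that build ribosomes were higher. Of 35 genes of MYC and ribosome biogenesis, 21 rose and 5 fell, with a median of 0.27. MYC went from 216 and 202 CPM to 264 and 273 CPM. The nucleolar proteins NOP58, NOP2, WDR12 and DKC1 rose by 0.78, 0.81, 0.61 and 0.51, and NOP58 and WDR12 by 0.47 and 0.30 with the median of 2q removed. Of 66 cytosolic ribosomal protein genes, 32 rose and 14 fell, with a median of 0.14, and 9 fell without knockout replicate 2. RPL11 went from 843 and 804 CPM to 1347 and 1269 CPM, RPS6 from 1366 and 1329.6 CPM to 2099 and 1888 CPM, and RPL30 from 826 and 798 CPM to 584 and 558 CPM. On the log2 scale RPL11 changed by 0.67 and RPL30 by -0.51, or by 0.36 and -0.20 with arm medians removed. Ribosomal protein genes have many processed copies, so their counts are uncertain.

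The integrated stress response, in which ATF4 raises amino acid supply, was higher in 22 of 36 and lower in 10, with a median of 0.29. ATF4 went from 205 and 211 CPM to 255 and 245 CPM. The amino acid transporter subunit SLC3A2 rose from 178 and 192 CPM to 463 and 483 CPM (log2 fold change 1.36, SE 0.0496, edgeR adjusted p = 1.14e-34), the asparagine synthetase ASNS by 0.80, the stress sensor SESN2 by 1.11 and CEBPB by 0.91. Transfer RNA synthetases rose in 9 of 11, with SARS at 243 and 245 CPM in control libraries and 424 and 428 CPM in knockout cells. CHAC1, which degrades glutathione and is a known ATF4 target, went against them, from 7.41 and 7.13 CPM to 2.14 and 1.89 CPM.

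Targets of the oxidative stress factor NRF2 and iron genes were higher in 17 of 28 and lower in 6, with a median of 0.21, and 11 were higher with arm medians removed. HMOX1, which breaks down haem, went from 19.0 and 23.3 CPM to 145 and 142 CPM (log2 fold change 2.76, SE 0.0721, edgeR adjusted p = 5.14e-43). The iron store FTH1 rose by 0.64 and the quinone reductase NQO1 by 0.49, while the transferrin receptor TFRC changed by -0.48. The exporter ABCC1 changed by -1.19, or -0.53 with the median of 16p removed. Heat shock genes were higher in 7 of 15 (46.7%) and lower in 4 (26.7%), with a median of 0.03. Among all genes 32.6% were higher and 33.4% lower. CHORDC1 changed by 0.46 and HSPH1 by -0.25, and the direction of HSPH1 turned to 0.12 with arm medians removed.

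In the endoplasmic reticulum, chaperones fell in 9 of 13 and rose in 2, among them PDIA4, which went from 573 and 579 CPM to 309 and 313 CPM, HSP90B1 (-0.50) and PDIA6 (-0.47). The factors XBP1, ATF6 and ERN1 and the degradation genes went the other way, with 3 of 3 factors and 3 of 4 degradation genes higher. HERPUD1 rose from 85.0 and 90.4 CPM to 178 and 172 CPM and ATF6 from 105 and 107 CPM to 176 and 172 CPM. The list as a whole had 8 higher and 9 lower of 20 and a median of -0.07.

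Hypoxia and glycolysis genes were lower in 23 of 37 and higher in 7, with a median of -0.34, and the glycolytic enzymes fell in 10 of 14 and rose in 0. The lactate exporter SLC16A3 (chromosome 17, 80175810 to 80219005) stood at 42.85 and 43.99 CPM in control libraries and 1.31 and 1.26 CPM in knockout cells, 2.96% of control (log2 fold change -5.08, SE 0.136, edgeR adjusted p = 2.25e-42). ALDOA went from 1227 and 1301 CPM to 627 and 629 CPM, or -1.01, and -0.36 with the median of 16p removed. PGK1 went from 1441 and 1434 CPM to 746 and 752 CPM, and the mitophagy gene BNIP3 changed by -0.91. The 7 rises were those of HK1 (0.57), EPAS1 (0.46), SLC2A3 (0.45), CA9 (0.42), SLC16A1 (0.41), HIF1A (0.18) and NDRG1 (0.16). SLC16A1 and CA9 stand with SLC16A3 among the lactate and acid genes, of which 2 rose and 1 fell. Oxidative phosphorylation genes fell in 19 of 40 and rose in 7, with a median of -0.11, and 3 rose with arm medians removed. SDHA and NDUFB10, on 5p and 16p, changed by -1.02 and -1.05, and by -0.23 and -0.40 with the medians of their arms removed.

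Cholesterol genes went both ways, with 10 of 38 higher (26.3%) and 13 lower (34.2%), against 32.6% and 33.4% of all genes. The sterol exporter ABCA1 rose from 12.7 and 13.1 CPM to 25.01 and 24.94 CPM, the synthesis enzyme DHCR7 changed by -0.43 and the fatty acid enzymes SCD, ACACA and FADS2 by -0.36, -0.48 and -0.56. Of 33 autophagy and lysosome genes, 18 rose and 2 fell, with a median of 0.16. The cargo receptor SQSTM1 went from 297 and 307 CPM to 484 and 490.4 CPM, ATG2A from 65.4 and 79.3 CPM to 119 and 133 CPM, and the lysosomal sterol carrier NPC2 from 24.2 and 22.4 CPM to 50.1 and 42.7 CPM. Of 14 genes of the BCL2 family, 6 rose (42.9%) and 4 fell (28.6%), with a median of -0.06, against 32.6% and 33.4% of all genes. The survival genes MCL1 and BCL2A1 rose by 0.57 and 0.86 and BCL2L1 changed by -0.63, while of the genes that promote death BCL2L11 rose by 1.01 and BAX changed by -0.53.

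Immediate early factors were mostly higher, and feedback genes of the ERK pathway went both ways. FOS and JUN family and EGR genes rose in 8 of 10 and fell in 1: FOS went from 3.67 and 3.85 CPM to 14.4 and 14.5 CPM, FOSB from 8.35 and 9.13 CPM to 23.997 and 25.77 CPM, and EGR1 from 46.8 and 55.3 CPM to 113 CPM in both knockout libraries. Of 12 feedback genes of the ERK pathway, 7 fell and 3 rose. The brakes SPRY1, SPRY2, SPRED1, DUSP1 and DUSP4 fell, as did the ERK-responsive factors ETV4 and ETV5, while SPRY4, SPRED2 and PHLDA1 rose and DUSP5 and DUSP6 did not pass. SPRY2 went from 248 and 232 CPM to 121 and 124 CPM (-0.97 on the log2 scale, or -0.60 with the median of 13q removed) and SPRED1 from 183 and 169 CPM to 88.9 and 92.5 CPM.

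Markers of cell state did not move as a block. Of 26 epithelial and mesenchymal genes, 5 rose and 8 fell. The keratins KRT8 and KRT18 fell, by 2.53 and 1.34 on the log2 scale, and since their annotated spans overlap on chromosome 12 their reads are uncertain, while KRT7 did not pass (edgeR adjusted p = 0.142). N-cadherin, CDH2, went from 162 and 161 CPM to 62.7 and 65.1 CPM, and the mesenchymal factor PRRX1 from 169 and 161 CPM to 45.9 and 43.97 CPM. The repressor SNAI2 rose from 59.9 and 56.8 CPM to 113 and 109 CPM, and the fibroblast protease FAP by 1.58. Ovarian cancer stem cell markers fell in 10 of 15 and rose in 3, with a median of -0.30. The rises were those of ABCB1 (0.63), SOX9 (0.46) and MYC (0.36). PROM1, ALDH1A1, SOX2, POU5F1, NANOG and NOTCH3 were not among the genes tested. The surface markers fell in 6 of 6, but CD44, ENG and ALCAM changed by only -0.30, -0.21 and -0.17. Besides THY1 and LGR5, the drug exporter ABCG2 went from 24.5 and 23.7 CPM to 4.05 and 4.33 CPM, LIN28B from 5.94 and 6.78 CPM to 0.562 and 0.594 CPM, and ALDH1A3, whose activity marks stem-like cells, from 656 and 649 CPM to 409 and 421 CPM.

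The markers of other cell types went both ways in each list. In the mesothelial and fibroblast list 4 of 8 tested rose and 4 fell: WT1 rose by 1.93 and LUM, with 0 counts in control and 116 in knockout cells, was at least 39.8-fold higher, whereas PDGFRA and PDGFRB changed by -2.15 and -3.97 beside COL1A1. Endothelial CDH5 went from 80.9 and 86.2 CPM to 23.8 and 28.0 CPM and TIE1 rose by 0.31, which was 0.00055 with the median of 1p removed. The call for TEK, with 10 and 31 counts, was lost in 3 of 4 fits that left out a library, with an edgeR adjusted p of up to 0.207. Of the haematopoietic markers CD68 and CD74 fell and LYZ rose, the latter not without knockout replicate 1 (edgeR adjusted p = 0.116). Their part in the matrix and cytokine results was not tested.

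The knockout effect under LY500307 was close to that with vehicle, which was measured in other libraries of the same cell populations. Their likeness therefore cannot separate KDM1A loss from other differences between the populations. With vehicle 8671 of 13030 genes (66.5%) passed, 4257 higher (32.7%) and 4414 lower (33.9%). Of 12957 genes tested in both contrasts, 7370 were called in both, 7348 of them in the same direction. Across these genes Pearson's r of the log2 fold changes was 0.946 and Spearman's rho 0.907, as a description, since genes are not independent. The difference between the effects, tested as an interaction over all 8 libraries, passed for 218 of 13498 genes (1.62%), above 0 for 71 (0.526%) and below 0 for 147 (1.09%). Leaving out a library moved this count to between 95 (without control LY500307 replicate 2) and 262 (without knockout LY500307 replicate 2), and 52 of the 218 were called in every such fit. Genes called under LY500307 only numbered 1259, and those with vehicle only 1269, of which 65 had a called difference. By the absolute log2 ratio of group mean CPM between treatments, with a small constant added, 118 of the 218 moved more in control cells and the rest did not. That share was not computed over all genes.

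**Figure D3:**
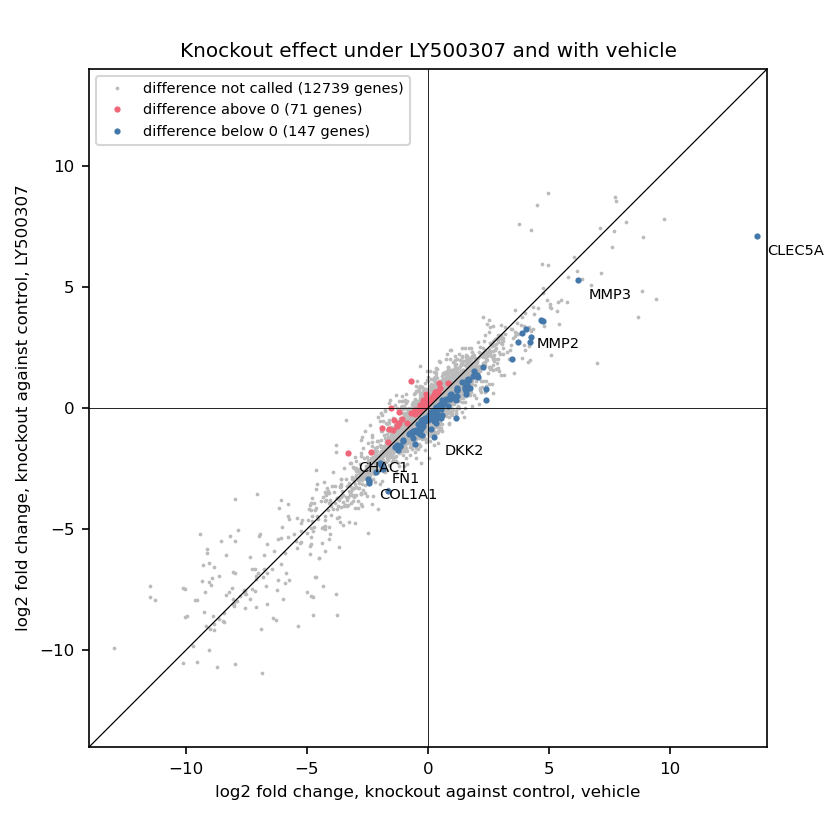
Log2 fold change of knockout against control under LY500307 (vertical axis) against the same with vehicle (horizontal axis), 1 point per gene tested, with genes whose effect differed in colour, 71 above 0 and 147 below. Most genes lie along the diagonal, and genes without counts in a group stand at fitted values that are no measure of size.

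Matrix genes were among those whose fold change was lower under LY500307 than with vehicle. The difference passed for 12 of 32 tested, all below 0, against 1.62% of all genes, and for 7 to 14 when a library was left out, 7 without control LY500307 replicate 2. COL1A1 stood at 12.5% of control under LY500307 and at 18.1% with vehicle (difference -0.53 on the log2 scale, edgeR adjusted p = 1.22e-05), and FN1 at 20.1% and 26.0% (-0.37, adjusted p = 4.66e-05). TGFBI, a matrix protein induced by TGF-beta, changed sides. With vehicle the values were 85.9 and 81.7 CPM in control and 125 and 127 CPM in knockout libraries, and under LY500307 at 155 and 160.3 CPM in control libraries and 129.5 and 131 CPM in knockout cells. It thus was higher in knockout cells with vehicle and lower under LY500307 (difference -0.87, edgeR adjusted p = 1.55e-09). The control level moved more between treatments than the knockout level. The others were COL6A2 (-0.26), COL6A3 (-0.36), LAMA4 (-0.46), LAMB1 (-0.31), LAMC1 (-0.24), TNC (-0.30), SPARC (-0.28), LOX (-0.23) and LOXL2 (-0.24). Of these, TNC and COL6A3 were higher in knockout cells under LY500307, at 1.07 and 0.18, against 1.39 and 0.54 with vehicle. TGFBI and SPARC are among 22 genes called in opposite directions under the 2 treatments, as are the kinase CDK1 (0.20 with vehicle, -0.18 under LY500307) and JUN (-0.11 and 0.25).

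DKK2, a secreted WNT antagonist (chromosome 4, 107842959 to 108204963), fell under LY500307 from 7.93 and 8.42 CPM to 3.49 and 3.74 CPM. With vehicle it stood at 6.82 and 6.53 CPM in control libraries and 8.34 and 7.46 CPM in knockout cells. Only under LY500307 did the groups separate downwards, and the difference was -1.42 (edgeR adjusted p = 4.63e-05). MMP2 and MMP3 rose less under LY500307 than with vehicle. MMP2 stood at 38.6 and 41.2 CPM in control libraries with vehicle and 653 and 652 CPM in knockout libraries with vehicle, so its difference was -0.77 (edgeR adjusted p = 2.95e-08). MMP3 stood at 30.9 and 35.0 CPM and at 2422 and 2436 CPM, a difference of -0.93 (edgeR adjusted p = 8.23e-07). Both differences stayed called whichever library was left out, and that of MMP3 then ranged from -1.16 to -0.66.

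Other rises that were smaller under LY500307 were those of the lymphocyte adaptor SH2D1B (difference -1.42), the semaphorin SEMA6B (-1.30), the lectin SIGLEC15 (-1.13), IL24 (-1.005) and the phosphodiesterase PDE2A (-0.99). In each, both control libraries treated with LY500307 lay above both treated with vehicle. The call of IL24 was lost without control LY500307 replicate 2 or control vehicle replicate 2 (edgeR adjusted p of up to 0.160). SH2D1B, for example, stood at 2.43 and 1.75 CPM in control libraries with vehicle and 6.43 and 5.14 CPM in LY500307-treated control cells, against 22.7 and 23.0 CPM and 24.3 and 22.9 CPM in knockout cells. The fitted difference of CLEC5A, -6.53, rests on a vehicle-treated control group without counts and is no measure of size, and its call was lost without control LY500307 replicate 2 (edgeR adjusted p = 0.146). CADPS (-1.48) was called in 1 of 8 fits that left out a library. KRT7, the carcinoma keratin, rose with vehicle (0.51) and stood at 0.08 under LY500307 (difference -0.42, edgeR adjusted p = 6.53e-05).

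Positive differences were mostly found for named genes whose fall was shallower under LY500307. SNHG4 (0.60 under LY500307, -0.08 with vehicle) and TET3 (0.34 and -0.21) were instead higher in knockout cells under LY500307. RPL22L1, a paralogue of a ribosomal protein (chromosome 3, 170582664 to 170587997), stood at 172 CPM in both vehicle-treated control libraries and at 69.9 and 60.9 CPM in knockout libraries with vehicle, but at 114 and 108 CPM and at 79.8 and 76.6 CPM under LY500307. The treated groups lay between the vehicle groups, and the difference was 0.89 (edgeR adjusted p = 1.53e-08). CHAC1 went from 6.86 and 7.93 CPM to 0.810 and 0.669 CPM with vehicle, a deeper fall than under LY500307 (difference 1.47, edgeR adjusted p = 0.00705), and this call was lost without knockout vehicle replicate 2 (adjusted p = 0.0972). The ornithine transporter SLC25A15 had a difference of 0.63 and the activin trap FST one of 0.52, both called in all 8 fits that left out a library. ADAMTS5 (1.12), ZNF48 (0.76), SNHG4 (0.69), FAM123B (0.59) and TET3 (0.56) were each lost in 2 or more of those fits.

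**Figure D4:**
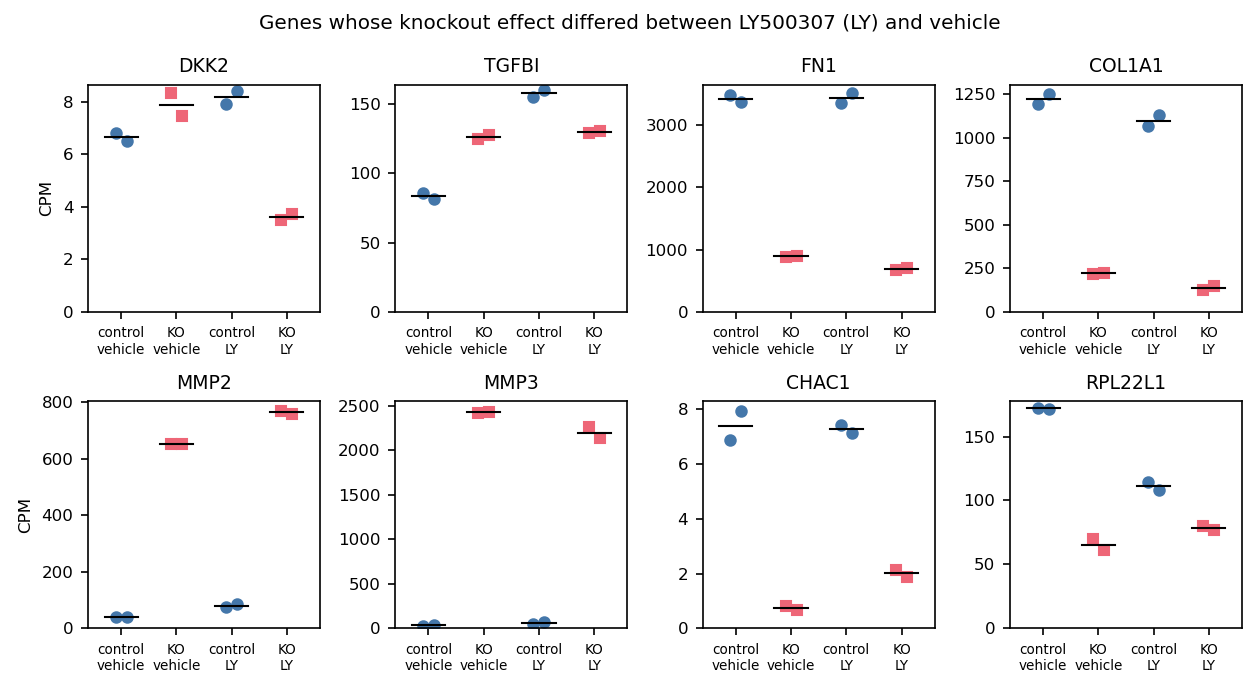
CPM of 8 genes whose knockout effect differed between treatments, each point 1 library, in control and knockout cells with vehicle and with LY500307. For DKK2 the knockout libraries lie below control under LY500307 only, at 3.49 and 3.74 CPM, and for TGFBI the order of the groups is the opposite with vehicle.

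Fold changes also varied by chromosome arm, in much the same way under both treatments. Of 41 arms with at least 20 tested genes, the median log2 fold change under LY500307 was lowest on 18p (-0.92 over 48 genes), 5p (-0.79 over 102) and 16p (-0.65 over 291). On these arms 89.6%, 81.4% and 83.2% of genes were lower, against 33.4% of all genes. With vehicle the medians of the 3 arms were -0.92, -0.79 and -0.65. The highest were 10p (0.34) and 3p (0.33). Whether copies of these arms differ between the cell populations was not tested. With arm medians removed, 8003 genes were called, 6840 of them among the 8819, and 183 changed sign. KDM1A, MMP2, MMP3, ANKRD1, COL1A1 and FN1 kept their directions and calls, while values of other genes moved as given beside them. Further values that moved by over 1.5 times with arm medians removed were those of MCM4 (-0.73 to -0.42) and CCNE2 (-0.78 to -0.47) on 8q, PDIA3 (-0.65 to -0.41) and ALDH1A3 (-0.65 to -0.41) on 15q, RCOR3 (0.36 to 0.17) and ASPM (0.54 to 0.36) on 1q, ACACA (-0.48 to -0.29) on 17q and BAX (-0.53 to -0.33) on 19q. On the arms with the highest medians the falls became deeper, for ITGB1 on 10p from -0.52 to -0.86 and for TGFBR2 on 3p from -0.50 to -0.83. All of these kept their calls.

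**Figure D5:**
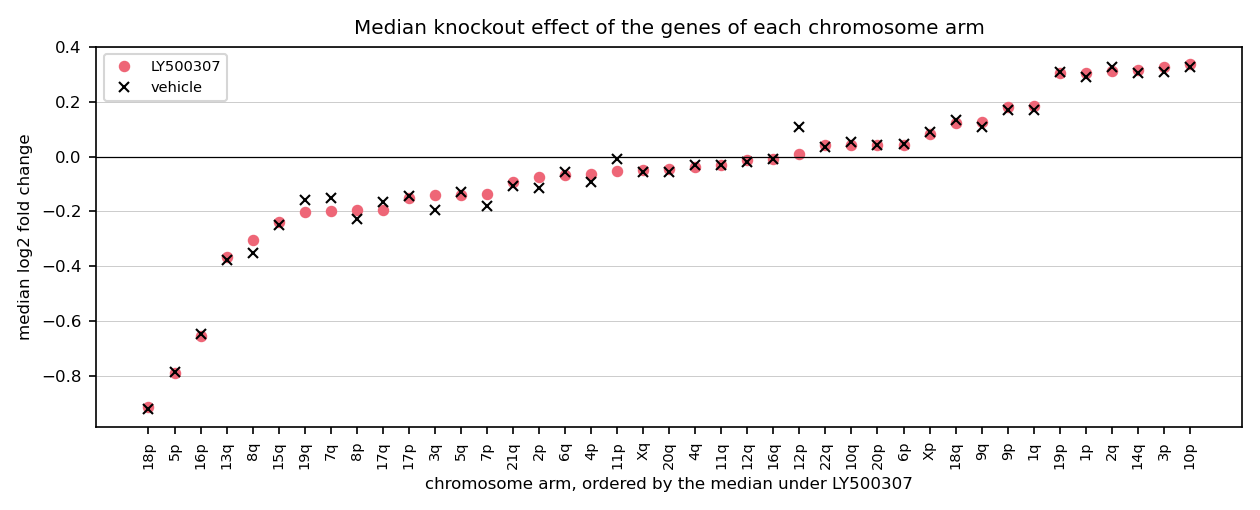
Median log2 fold change of knockout against control over the tested genes of each chromosome arm, under LY500307 (dots) and with vehicle (crosses). The arms 18p, 5p and 16p lie lowest, at -0.92, -0.79 and -0.65 under LY500307, and the 2 marks of each arm nearly coincide.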

How the data were processed

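The authors deposited 1 file of raw gene counts for each library. Per the submitters' processing notes they used bcl2fastq, TopHat2 2.0.8b, HTSeq and the build hg19. The series text speaks of combining raw reads, but values differ between the files of a group. In a chi-square test of duplicates the statistic over its degrees of freedom was 3.12 to 4.44, so they were kept apart as samples. The 5 closing summary lines were removed. Of uniquely aligned reads, 10.7% to 12.8% lay outside genes and 0.811% to 0.861% were ambiguous. Libraries held 24348937 to 30131097 gene counts, and of 23228 genes listed 5520 had no count. Sample columns not used numbered 0.

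Counts were tested with edgeR 4.0.16 (limma 3.58.1, R 4.3.3): filterByExpr, TMM, glmQLFit and glmQLFTest, two-sided, with p-values adjusted by Benjamini-Hochberg over every gene tested and a threshold of 0.05. The contrast used the 4 libraries treated with LY500307 (2 residual degrees of freedom, prior 61.2, biological coefficient of variation 4.19%), the vehicle contrast the 4 others, and their difference all 8 as an interaction. SE is the log2 fold change over the square root of F. Folds against groups without counts use a floor of 3 counts over the group, and ratios with 1 to 3 counts an exact 95% interval. Both cover counting error only. Alternatives were the size factors of DESeq2, library totals, no filter, DESeq2 1.42.0, a replicate block, all 8 libraries, each library left out and, added after seeing the data, arm medians removed. The procedure was also run on simulated counts in which far fewer genes changed than were called here. That run therefore does not show how the procedure performs on data such as these.

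The contrast, the 37 lists (989 entries, 988 found, 962 different genes, 866 of these genes tested) and the rules were chosen with earlier results of these data known. Named were KDM1A, ESR1, ESR2 and GPER. For the contrast, the 14 largest rises and 14 largest falls were taken among genes called with at least 5 CPM in a group and no overlap of libraries. For the difference, 8 were taken in each direction. From each list up to 5 members with the smallest p were taken, or those with the highest mean where fewer than 2 were called. Uncharacterised genes and small or antisense RNAs were not named. Members named by their role beyond this rule, markers, and genes with a called difference were chosen after their values were seen. A few genes chosen this way are not reported here. For gene positions 19035 symbols and 2174 older symbols were found in the lifted GENCODE annotation of GRCh37 (release 44) and 2019 were not. Its bounds can differ from those used in counting. Promoters (300 bases) are from RefSeq.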

Additional observations from a re-analysis of the deposited data

Results flagged for a closer look

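The knockout effect under LY500307 differed from that with vehicle, by edgeR's quasi-likelihood test of the interaction over all 8 libraries with Benjamini-Hochberg adjustment, for 218 genes. Values are the log2 fold change under LY500307 minus that with vehicle. Positive values were found for CHAC1 (1.47), ADAMTS5 (1.12), RPL22L1 (0.89), ZNF48 (0.76), SNHG4 (0.69), SLC25A15 (0.63), FAM123B (0.59), TET3 (0.56) and FST (0.52). The largest negative values were those of CLEC5A (-6.53, a fitted value with no counts in vehicle-treated control cells), CADPS (-1.48), SH2D1B (-1.42), DKK2 (-1.42), SEMA6B (-1.30), SIGLEC15 (-1.13), IL24 (-1.005) and PDE2A (-0.99).

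Among members of the gene groups, MMP3 (-0.93) and MMP2 (-0.77), whose rise in knockout cells was smaller under LY500307, had negative values. The inhibitor TIMP3 (-0.44) and the activators PLAT (-0.43) and PLAU (-0.25), whose fall was deeper under LY500307, had negative values too. So did the matrix and adhesion genes COL1A1 (-0.53), FN1 (-0.37) and ITGB5 (-0.33), the YAP target CTGF (-0.22), the keratins KRT8 (-0.66) and KRT18 (-0.32), the tubulin-binding STMN3 (-0.61), TUBA1A (-0.34), TOP2A (-0.41) and the sterol exporter ABCA1 (-0.67). Of these 32 genes, 18 kept the call in each of 8 fits that left out a library. CTGF, TUBA1A and CADPS kept it in 1 fit, ZNF48 and FAM123B in 2, ITGB5, KRT8 and TET3 in 3, and ADAMTS5 and PLAU in 4.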

How the results depend on the processing

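Of 199 genes named for the contrast under LY500307, 187 kept their direction and side of the threshold in every alternative run. With arm medians removed the direction turned for ZMYM2 (0.039), PLK1 (0.076), HSPH1 (0.12), DNAJB1 (-0.033) and TUBB6 (0.0013), and the call was lost for BARD1 (0.12), DNAJA1 (0.092), HSPB1 (-0.063), UQCRC2 (-0.016) and TIE1 (0.00055). The alternative itself subtracts the arm's median, which accounts for these shifts. TEK lost its call under DESeq2 (adjusted p = 0.141) and without control LY500307 replicate 1 (0.141), control LY500307 replicate 2 (0.0512) or knockout LY500307 replicate 1 (0.207). The number of genes called was 7381 by DESeq2 under LY500307, 7198 with vehicle and 185 for the difference. When each library was left out in turn, which leaves an arm with 1 sample assumed to vary like the others, it ranged from 7613 to 8266 under LY500307, from 6857 to 8058 with vehicle and from 95 to 262 for the difference. Without a filter the difference passed for 350 genes. Library totals shifted the median of all genes by 0.033. With the replicate number as a block, calls numbered 8972 under LY500307, 9080 with vehicle and 643 for the difference, including all 218, although nothing shows that the numbers pair samples (deviations of same-numbered libraries correlated at r of 0.00061 to 0.070). List counts that moved by over 1.5 times without a library stand beside those lists in most cases. With arm medians removed, ribosomal protein genes were lower in 5 and stress response genes in 5. Genes at a few counts, the receptors ESR1 and ESR2 among them, are limited by depth.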
